A study of Mus musculus with 2 samples.

Results

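The collagen chains are the proteins that wind together, in threes of like or unlike kind, into the collagen molecules of the extracellular matrix. They were read here in the aortic wall of apoE-/- mice as every gene spot whose name in the scanner tables is that of a collagen chain, that is Col, a type number, the letter a and a chain number. This name rule uses no measured value. It took 68 spots for 37 genes, of 29273 distinct gene names on the array, and the genes belong to 23 collagen types. Of the 37, 35 could be compared, among 22812 genes compared in all. The other 2, Col10a1 of hypertrophic cartilage and Col12a1, which sits on the surface of fibrils, had no probe well above background in at least 1 of the RNAs on both arrays.

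The mice lack apolipoprotein E and develop atherosclerosis, were 16 weeks old and numbered 3 males and 3 females. Aortas were perfused with the detergent Triton X-100 to strip the endothelium, since smooth muscle was the cell type of interest. The arch segment, labelled as prone to atherosclerosis, ran from the aortic root through the arch to 2 mm into the thoracic aorta. The thoracic segment, labelled as resistant, was the stretch of 6 mm beyond it. RNA of the 6 mice was combined into 1 pool per segment. Each of 2 arrays carried both pools, the arch in Cy3 and the thoracic pool in Cy5 on array 1 and the reverse on array 2. No wild-type mouse is in the comparison, so every value below belongs to apoE-/- vessels. Both arrays hold the same pools and count as 1 replicate: each ± is the SD between 2 arrays, which is technical error. Pools are said not to overlap where both readings of 1 pool lie above both of the other. That too speaks to technical error alone. The share of all genes for which it holds is not given, so it sets no gene apart. The spread among mice is unknown, so p-values are not given.

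In the vessel wall, fibrils of types I and III carry tensile load, and types V and XI start such fibrils and limit their width. Type IV forms the sheet of basement membranes around smooth muscle cells, type VIII forms a short-chain network beneath the endothelium and around smooth muscle, and type VI forms beaded filaments between cells and fibrils. Smooth muscle cells and adventitial fibroblasts make most of the wall's collagen, and fibrous plaques are rich in it.

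Most chains were alike in both pools, and type VIII was the exception. Col8a1 was 1.66-fold higher in the arch pool and its partner chain Col8a2 was 1.89-fold higher in the thoracic pool, each with almost the same ratio on both arrays. Among the abundant fibrillar chains, Col1a2 and Col3a1 were modestly higher in the arch pool, by an amount that depended on how dye bias was removed. Col14a1, Col6a1 and Col16a1 were higher there by less than 1.5-fold. Over the 35 chains the median log2 ratio of arch over thoracic was 0.10 (0.07 on array 1 and 0.13 on array 2), beside -0.01 over all genes compared. The ratios ran from -0.92 to 0.73.

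Differences were called by size, as 1 pool per segment allows no test. The first rule asks for a mean difference of 2-fold or more that reaches 1.5-fold on array 1 and on array 2 with one sign. By it, 0 of 35 chains passed for the arch, where 0.473% of all genes compared passed, and 0 of 35 for the thoracic pool, where 0.145% passed. The second rule asks for 1.5-fold or more on both arrays with one sign, and 1 chain passed it for the arch (Col8a1), against 1.21% of all genes, and 1 for the thoracic pool (Col8a2), against 0.386%. Without loess, the step that removes dye bias along brightness, Col8a1 was at 0.45 on array 1 and 0.96 on array 2, and 0 chains passed for the arch. With an offset of 0 in the background correction, or in the deposited ratios, Col8a2 passed the 2-fold rule as well, so that its count was 1. With so few chains, 1 in each direction cannot be set apart from these background shares. The same rules applied to the dyes in place of the segments were passed by 0 collagen chains and by 0 genes in all. The chains' SDs between arrays had a median of 0.05 and a 95th percentile of 0.24, beside 0.06 and 0.18 for all genes.

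The chains leaned towards the arch by small amounts. Of the 35, 26 (74.3%) had a mean above 0, beside 47.3% of all genes compared. On both arrays 20 chains (57.1%) were above 0 and 7 (20%) below it, beside 32.4% and 35.2% of all genes, and for 8 chains the arrays disagreed in sign. Without loess the chains' median was 0.04, and 9 chains (25.7%) were above 0 and 5 (14.3%) below it on both arrays, beside 16.5% and 18.2% of all genes. Under 1.5-fold lay 33 chains (94.3%), beside 98.1% of all genes. All 35 were well above background in both RNAs. Chains share RNA sources and are no replicates of one another, so these shares describe the 2 pools.

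**Figure D1:**
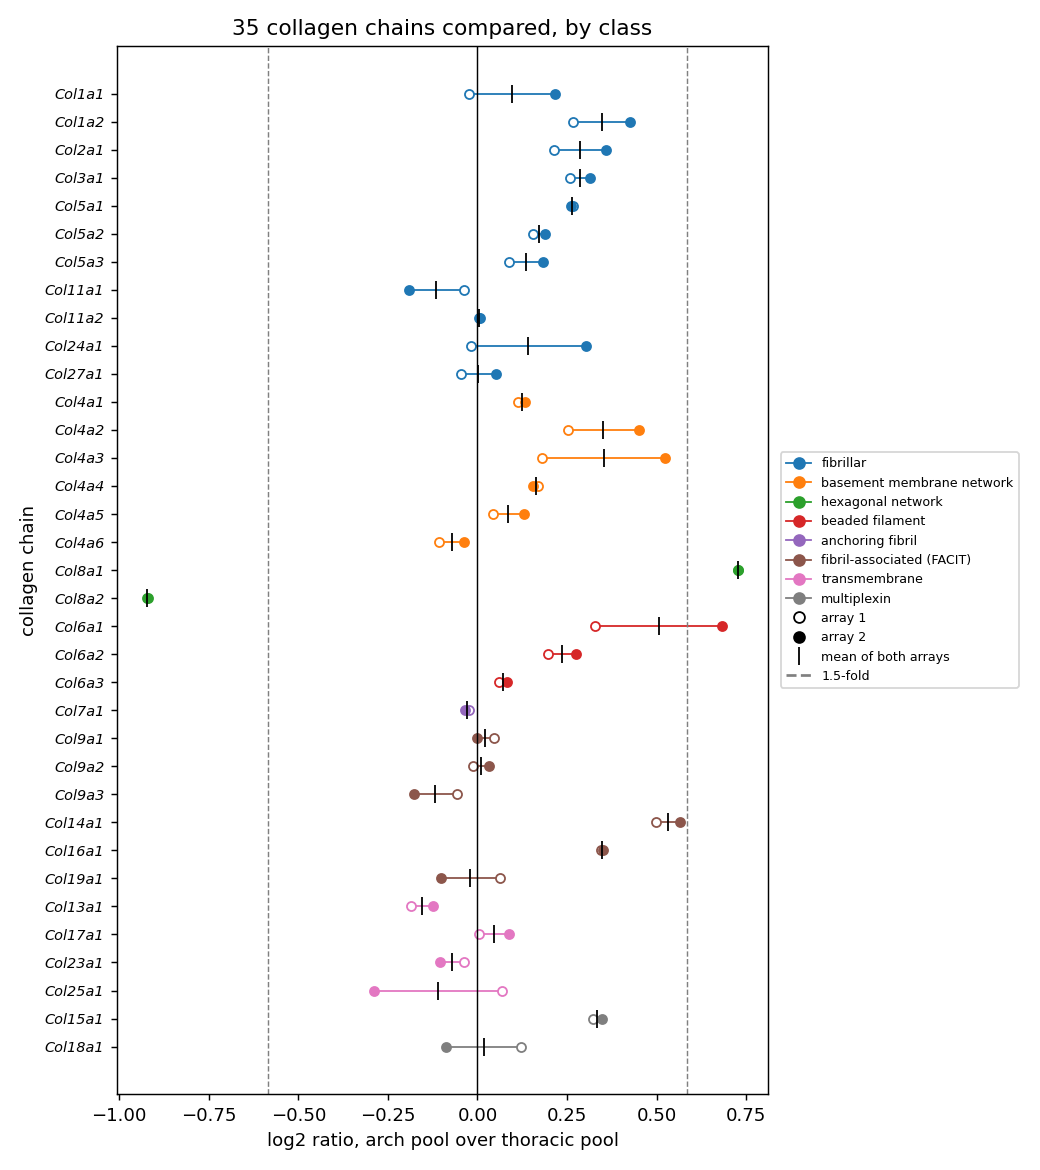
Log2 ratio of arch over thoracic pool (x axis) for the 35 collagen chains compared (y axis, grouped by class), with array 1 as open circles, array 2 as filled circles and a tick at their mean; dashed lines mark 1.5-fold. Col8a1 at 0.73 and Col8a2 at -0.92 lie outside the dashed lines on both arrays, where open and filled circles coincide, and Col6a1 crosses the line on array 2 alone.

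Depth and sample quality touch these values as follows. Each array carried 41534 gene spots, of which 76.5% to 82.6% were well above background in a given RNA. Median signals of 132 to 142 stood close above those of negative controls, whose means were 77.0 to 97.1, so ratios of dim chains are pulled towards 0. All 12 smooth muscle markers, among them the contractile genes Acta2, Tagln and Myh11, were well above background in both pools. Their median ratio was 0.13 (-0.06 without loess), with 4 above 0 and 3 below 0 on both arrays. Acta2 (0.79 and -0.29), Tagln (0.79 and -0.29) and Myl9 (0.68 and -0.29) were on saturated spots, with arrays of opposite sign. Means of these 3 were 0.25, 0.25 and 0.19. As all lie above the median, the median leans on saturated spots. Markers of other cell types moved with the segment: 8 of 9 mesothelial genes, 4 of 14 adventitial fibroblast genes, 4 of 12 endothelial, 5 of 12 macrophage, 4 of 10 cartilage and 5 of 10 heart muscle genes passed the 1.5-fold rule for the arch, and 0 of each list for the thoracic pool. Of skeletal muscle, Schwann cell and adipocyte markers, 2 of 10, 1 of 9 and 0 of 10 did so. Summed signals on arrays 1 and 2 were 8373 and 7882 in the arch against 3226 and 3128 in the thoracic pool for mesothelium, 110835 and 80309 against 58151 and 68896 for macrophages, and 28301 and 31011 against 23092 and 21155 for heart muscle. One bright gene carries most of the latter sums, the saturated Lyz2 for macrophages and Actc1 for heart muscle. Without it the sums were 24979 and 24595 against 8512 and 8522 for macrophages, and 7118 and 6971 against 1983 and 2045 for heart muscle. Of the macrophage sums without Lyz2, Cd5l alone gave 10133 and 9901 in the arch against 560 and 620 in the thoracic pool. The macrophage markers Adgre1, Csf1r, Itgam and Cd14 were at -0.06, 0.07, 0.04 and -0.14. Of all 12 in that list, 8 were above 0 and 2 below 0 on both arrays. Of the heart muscle sums without Actc1, Myl7 alone gave 3137 and 2910 in the arch against 236 and 246 in the thoracic pool. The heart muscle markers Nppa, Myh6 and Ryr2 were at 0.04, -0.05 and -0.14. Of those 10 markers, 7 were above 0 and 1 below 0 on both arrays. Without loess 1 of 14 adventitial fibroblast, 3 of 10 cartilage and 1 of 10 skeletal muscle markers passed, and the counts of the other lists were as given. Among the genes compared in the 6 lists named first, only 1 cartilage gene was not well above background in the thoracic pool. That count cannot show which cell types a pool held, because dim probes had been filtered out beforehand. Of all 22812 genes compared, 21779 were likewise well above background in both RNAs. In a pool, fewer cells of a type and less RNA per cell cannot be told apart, and the part of these cells in the collagen ratios was not tested.

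Type VIII collagen is a network collagen of the subendothelium and of smooth muscle cells that respond to injury, and its chains Col8a1 and Col8a2 can assemble alone or together. Col8a1 gave normalized signals of 1241 (array 1) and 1181 (array 2) in the arch pool and 749 and 713 in the thoracic pool. The arch values lay above both thoracic values, a log2 ratio of 0.73 ± 0.00 at percentile 99.1 of all genes compared. A further Col8a1 probe, with 267 and 284 in the arch and 176 and 183 in the thoracic pool, gave 0.62 ± 0.02, also with no overlap. Col8a2 went the other way: it gave 362 and 361 in the arch pool and 687 and 683 in the thoracic pool. That is a log2 ratio of -0.92 ± 0.00, at percentile 0.18 of all genes, from the gene's only probe.

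The difference between the 2 chains' log2 ratios was 1.65 on array 1 and 1.65 on array 2, a 3.14-fold shift in the ratio of Col8a1 to Col8a2 between the pools (SD between arrays 0.00). A shift of ratios does not need the levels of different probes to be comparable. In the other types with more than 1 chain compared, the distance between the highest and the lowest chain was 0.43 for type VI, 0.42 for type IV, 0.25 for type I, 0.14 for type IX, 0.13 for type V and 0.12 for type XI. Types IX and XI held mostly dim chains, whose ratios are pulled towards 0. Type VIII holds the highest (0.73) and the lowest (-0.92) ratio of the chains compared. Its spread therefore had to be the widest of the 7 such types, and adds nothing to the values of its 2 chains. Their relative Col10a1, whose product is a short-chain network collagen of growth plate cartilage, was one of the chains not compared.

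**Figure D2:**
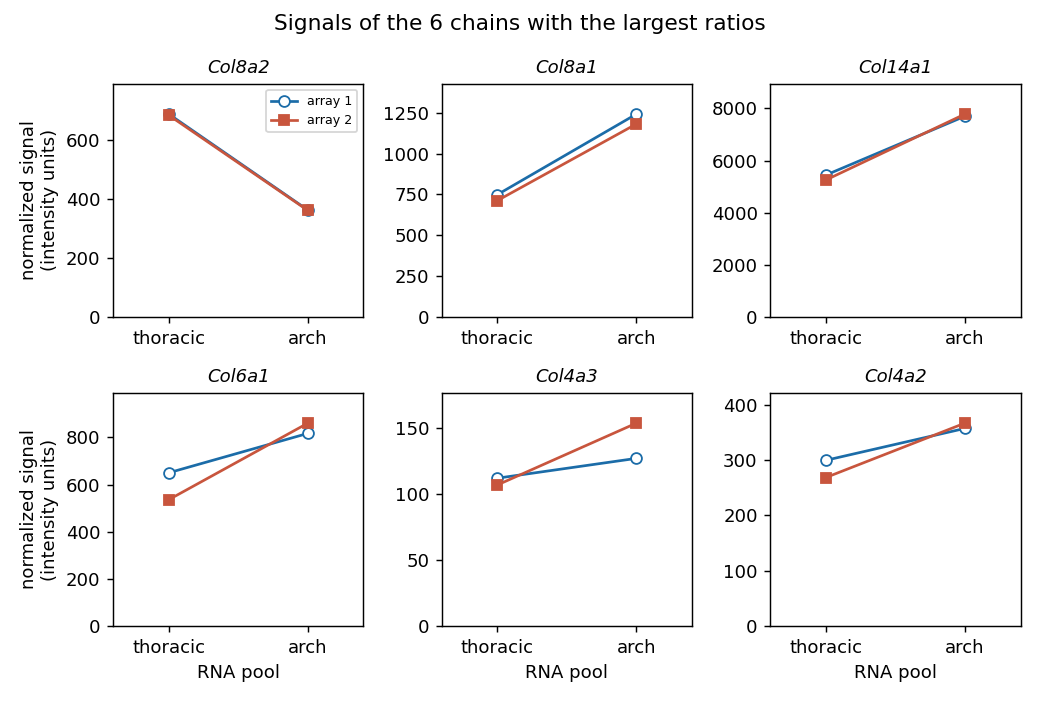
Normalized signal (y axis, linear intensity units from 0, own scale per chain) in the thoracic and the arch pool (x axis) for the 6 chains with the largest ratios; lines join the pools on array 1 (open circles) and array 2 (squares). Col8a2 falls from 687 and 683 in the thoracic to 362 and 361 in the arch pool, and the lines of Col8a1 and Col14a1 run nearly parallel on both arrays.

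The promoter windows of the type VIII genes are shown because these chains differed in opposite directions. They are the 250 bases before the RefSeq start of each gene in build GRCm38.p6, read 5′ to 3′ on the gene's own strand: Col8a1 at chr16:57754738-57754987 (minus strand) and Col8a2 at chr4:126286544-126286793 (plus strand). Capitals mark the motif GGGCGG, the GC box bound by Sp1-type factors, or its reverse complement CCGCCC. In Col8a2 the last pair of motifs overlap and read as 1 run.
Col8a1: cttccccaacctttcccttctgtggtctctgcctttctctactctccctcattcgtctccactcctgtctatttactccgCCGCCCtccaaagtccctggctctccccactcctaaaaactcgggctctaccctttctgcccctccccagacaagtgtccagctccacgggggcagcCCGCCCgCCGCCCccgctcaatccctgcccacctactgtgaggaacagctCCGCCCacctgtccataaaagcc
Col8a2: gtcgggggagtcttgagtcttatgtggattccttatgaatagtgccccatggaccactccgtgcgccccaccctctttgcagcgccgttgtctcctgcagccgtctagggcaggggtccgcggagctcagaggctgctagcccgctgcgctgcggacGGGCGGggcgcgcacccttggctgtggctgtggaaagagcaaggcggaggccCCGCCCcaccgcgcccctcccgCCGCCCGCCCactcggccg

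Each window holds 4 GC boxes, and GC content was 60.8% for Col8a1 and 70.0% for Col8a2, beside a median of 52.4% over 32851 RefSeq windows of the same length. No match to the TATA motif TATAAA, to CCAAT or to the AP-1 motif TGANTCA was found in either window on either strand, which says only that these letters are not in these 250 bases. Of the 37 collagen genes, 30 had a window. The GC box was in the windows of 18 of them (32.7% of all windows), CCAAT in 12 (33.8%), TATAAA in 5 (12.4%, among them Col3a1) and TGANTCA in 1, Col6a1 (6.75%). A motif match is a description of the letters, and binding was not measured.

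The 11 fibrillar chains, which form the load-bearing fibrils and their cores, had a median of 0.14, with 7 above 0 and 1 below 0 on both arrays and 0 past the 1.5-fold rule. Col1a2, a chain of type I collagen, gave 39413 and 40862 in the arch and 32765 and 30404 in the thoracic pool. The pools did not overlap, at a log2 ratio of 0.35 ± 0.11. Col1a1, the other type I chain, gave 36902 and 41833 in the arch and 37512 and 36005 in the thoracic pool. These values overlap, the arrays disagree in sign (-0.02 and 0.22) and the mean was 0.10 ± 0.17. Further Col1a1 probes gave 0.21 and 0.07, the latter from a dim probe at 91.7 to 101. The difference between the type I chains, Col1a2 minus Col1a1, was 0.25 ± 0.06, or 1.19-fold, and had the same sign on both arrays.

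Col3a1, the chain of type III collagen, whose loss weakens arteries, gave 62015 and 56607 in the arch and 51819 and 45512 in the thoracic pool. The pools did not overlap, with a ratio of 0.29 ± 0.04, but the arch spot of array 2 was saturated, which limits that signal from above. Its dimmer probes, which were not saturated, gave 0.16 and 0.20. The probe at 0.16 was near the negative controls, at 66.5 to 80.7, and the probe at 0.20 gave 197 to 269. Col2a1, the main chain of cartilage fibrils, gave 18494 and 20865 in the arch and 15951 and 16284 in the thoracic pool. The ratio was 0.29 ± 0.10 without overlap, while its further probe gave 0.08 ± 0.15, with arrays of opposite sign. That probe was far dimmer, with 334 and 351 in the arch and 340 and 309 in the thoracic pool. Whether the bright probe reads Col2a1 alone was not tested. Cartilage markers stood beside Col2a1 as follows: of 10 compared, 4 passed the 1.5-fold rule for the arch, while the list's median was 0.16. Its summed signal was 6334 and 6339 in the arch against 2616 and 2631 in the thoracic pool, most of it from Cytl1, Comp and Epyc (2.48, 0.71 and 2.32). The structural cartilage genes Acan, Hapln1 and Chad were at 0.14, -0.11 and -0.01.

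The fibril-starting type V chains ran together. Col5a1 gave 1874 and 1814 in the arch and 1558 and 1513 in the thoracic pool, a ratio of 0.26 ± 0.00 without overlap. Col5a2 was at 0.17 ± 0.02 and Col5a3 at 0.14 ± 0.07, each above 0 on both arrays. Col5a2 lies 24.6 kb from Col3a1 on chromosome 1. Their type XI counterparts, which take this role in cartilage, were dim, at 114 to 161 beside negative control means of 77.0 to 97.1. Col11a1 was at -0.12 ± 0.11 and Col11a2 at 0.00 ± 0.00, and ratios at such signals are pulled towards 0. The remaining fibrillar chains, Col24a1 (0.14 ± 0.23) and Col27a1 (0.00 ± 0.07), had arrays of opposite sign.

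The brightest chains depend on how dye bias was removed. Loess, which straightens the ratio against brightness within each array, set the median of the 937 genes above a log2 brightness of 12 at 0.01, and median centring alone left it at -0.15. The 5 collagens in that range (Col14a1, Col1a1, Col1a2, Col2a1 and Col3a1) had a median of 0.29 with loess and 0.10 without. Without loess Col1a1 was at -0.14, Col1a2 at 0.11, Col2a1 at 0.10, Col3a1 at 0.03 and Col14a1 at 0.41. The range of brightness above 12 is wide, so its median of -0.15 need not hold for genes as bright as Col1a1. Beside that median, Col1a1 (-0.68 on array 1 and 0.40 on array 2) was nearly level, and the other 4 lay above. Arrays of opposite sign were also seen without loess for Col1a2 (-0.38 and 0.61), Col2a1 (-0.36 and 0.56) and Col3a1 (-0.44 and 0.49). Col14a1 was above 0 on both (0.03 and 0.79). Against 0 the direction of Col1a1 changes.

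**Figure D3:**
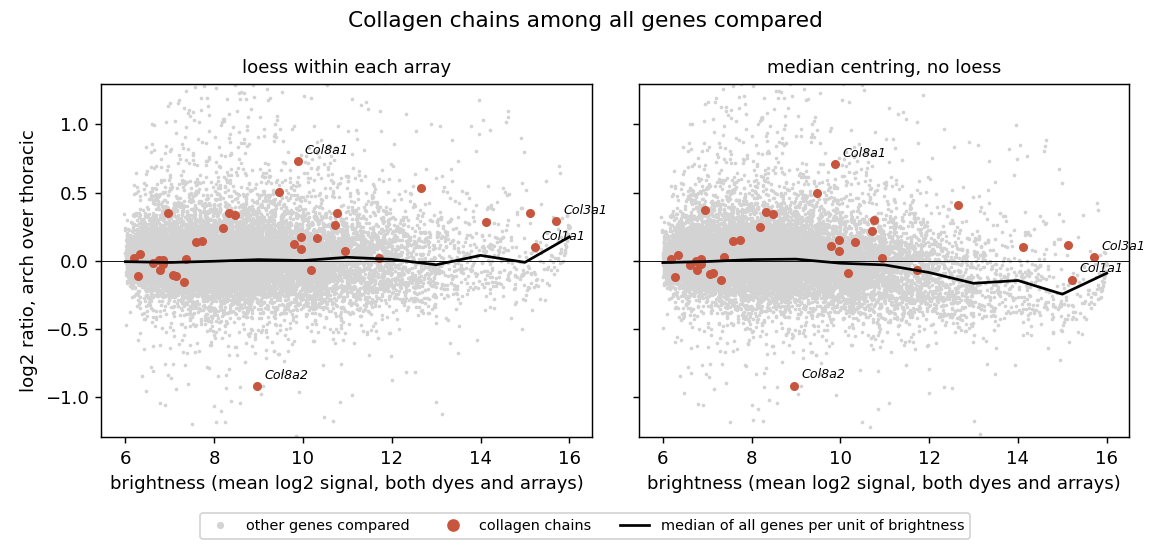
Log2 ratio of arch over thoracic (y axis) against mean log2 signal (x axis) for all genes compared (grey) and the 35 collagen chains (red), with loess (left) and with median centring alone (right); the line is the median of all genes per unit of brightness, and genes beyond the axis limits are not drawn. Without loess the line drops for bright genes, and the 5 bright collagens come down with it.

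The FACIT collagens bind to the surface of fibrils and carry interrupted triple helices. Of 7, 6 were compared, with a median of 0.02, 2 above 0 and 1 below 0 on both arrays. Col14a1, a FACIT of type I fibrils made by fibroblasts, gave 7700 and 7782 in the arch and 5446 and 5257 in the thoracic pool. The pools lay apart, at 0.53 ± 0.05 and percentile 98.3 of all genes, or 1.45-fold, just under the 1.5-fold rule. Its further probe gave only 0.07 ± 0.06, with signals of 104 to 115 near the negative controls. Col16a1, found beside fibrils and microfibrils in smooth muscle, gave 1938 and 1973 in the arch and 1525 and 1548 in the thoracic pool, a ratio of 0.35 ± 0.00 from its only compared probe, again without overlap. The cartilage FACIT chains Col9a1 (0.02 ± 0.03), Col9a2 (0.01 ± 0.03) and Col9a3 (-0.12 ± 0.08) and the rare Col19a1 (-0.02 ± 0.12) were close to 0. For 3 of these 4 the arrays disagreed in sign. Col9a1, Col9a3 and Col19a1 were dim, at 72.0 to 106, and Col9a2 gave 161 to 171. With an offset of 0 in the background correction Col9a3 was at -0.32, and in the deposited ratios at -0.43.

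Adventitial fibroblast markers stood beside Col14a1 and the type I and III chains as follows. Their median was 0.24 over 14 genes. Summed signals were 268957 and 215350 in the arch and 169363 and 215976 in the thoracic pool, overlapping sums in which 2 saturated genes take part. These 2, Gsn (0.79 and -0.29) and Dcn (0.77 and -0.29), had arrays of opposite sign. The list's median lies between their means of 0.25 and 0.24. Without Gsn, the brightest, the sums were 183096 and 156402 in the arch and 119721 and 143680 in the thoracic pool. Those sums did not overlap, but Dcn is still in them. Of the 14, 9 were above 0 and 2 (Clec3b at -0.28 and Dpep1 at -0.08) below 0 on both arrays. Pdgfra, a receptor of fibroblasts, was at 0.84 ± 0.00, but another of its probes gave 0.12. Lum, a fibril-binding proteoglycan, was at 1.05 ± 0.02 and Cd34 at 0.01 ± 0.03 (-0.20 without loess). Their part in the collagen ratios was not tested.

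The 6 type IV chains of basement membranes had a median of 0.14, with 5 above 0 and 1 below 0 on both arrays. Col4a1 and Col4a2, the chains found in nearly every basement membrane, run in opposite directions on chromosome 8 and overlap by 85 bases at their starts. Col4a1 gave 917 and 940 in the arch and 847 and 857 in the thoracic pool (0.12 ± 0.01), and a further probe gave 0.26. Col4a2 gave 357 and 366 in the arch and 299 and 268 in the thoracic pool (0.35 ± 0.14), and a further probe gave 0.21. Both chains were higher in the arch without overlap, and their difference was 0.23 ± 0.13 (0.14 on array 1 and 0.32 on array 2).

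Col4a3 and Col4a4, which join Col4a5 in the membranes of kidney and lung, overlap by 114 bases at their starts on chromosome 1. Col4a3 was dim and scattered, at 127 and 154 in the arch and 112 and 107 in the thoracic pool (0.35 ± 0.24, further probe 0.38). Col4a4 was at 0.16 ± 0.01. Col4a5 and Col4a6, which form a network in smooth muscle basement membranes and lie 1274 bases apart on chromosome X, were at 0.09 ± 0.06 and -0.07 ± 0.05. The probes of Col4a6 disagreed: the brightest gave 973 and 1313 in the arch and 1047 and 1346 in the thoracic pool, which overlap, while the other 2 gave 0.42 ± 0.08 and 0.35 ± 0.01. The sign of Col4a6 therefore depends on the probe.

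Type VI collagen forms beaded microfibrils that tie cells to the interstitial matrix, and all 3 of its chains on the list were above 0 on both arrays, with a median of 0.24. Col6a1 gave 817 and 861 in the arch and 650 and 537 in the thoracic pool. The pools lay apart, but the arrays differed in size (0.33 and 0.68), so that the mean of 0.51 ± 0.25, at percentile 98.1, has a wide error. Col6a2 gave 315 and 319 in the arch and 275 and 264 in the thoracic pool, at 0.24 ± 0.06. Col6a3 was at 0.07 ± 0.02, and a further Col6a3 probe, dim at 62.9 to 72.0, gave -0.13 ± 0.04. Col6a1 and Col6a2 lie 85.2 kb apart on chromosome 10.

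The multiplexins sit at the border of basement membranes and release fragments that restrain vessel growth. Col15a1 gave 406 and 396 in the arch and 325 and 311 in the thoracic pool, a ratio of 0.33 ± 0.02 without overlap. Its further probe gave 0.21, but was dim at 66.9 to 81.2, beside negative control means of 77.0 to 97.1. Col18a1, the source of endostatin, gave 3625 and 3172 in the arch and 3332 and 3370 in the thoracic pool. Those values overlap, and the ratio was 0.02 ± 0.15 (further probe 0.15 ± 0.03). Endothelial markers, read after the detergent perfusion, had a median of 0.45 over 12 genes, with summed signals of 3327 and 3251 in the arch and 2215 and 2156 in the thoracic pool. Their ratios ran from 0.05 to 1.24, and 11 were above 0 on both arrays.

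The transmembrane collagens span the cell membrane and keep their collagen domains outside. Their 4 chains had a median of -0.09, and 2 were below 0 and 1 above 0 on both arrays. Col13a1, found at cell-matrix contacts, gave 149 and 152 in the arch and 170 and 166 in the thoracic pool, at -0.15 ± 0.04 and without overlap. Col23a1 was at -0.07 ± 0.05, Col17a1 of epithelial hemidesmosomes at 0.05 ± 0.06 and Col25a1 at -0.11 ± 0.25, with arrays of opposite sign. Col7a1, which makes the anchoring fibrils of skin, was at -0.03 ± 0.01.

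The choice of probe mattered for a few chains. Of the 17 chains with more than 1 probe compared, all probes had the same sign in 13. The range over a chain's probes had a median of 0.13 and reached 0.49 in Col4a6 and 0.46 in Col14a1. Of these 17 chains, Col8a1 was the one in which every probe (0.73 and 0.62) passed the 1.5-fold rule.

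**Figure D4:**
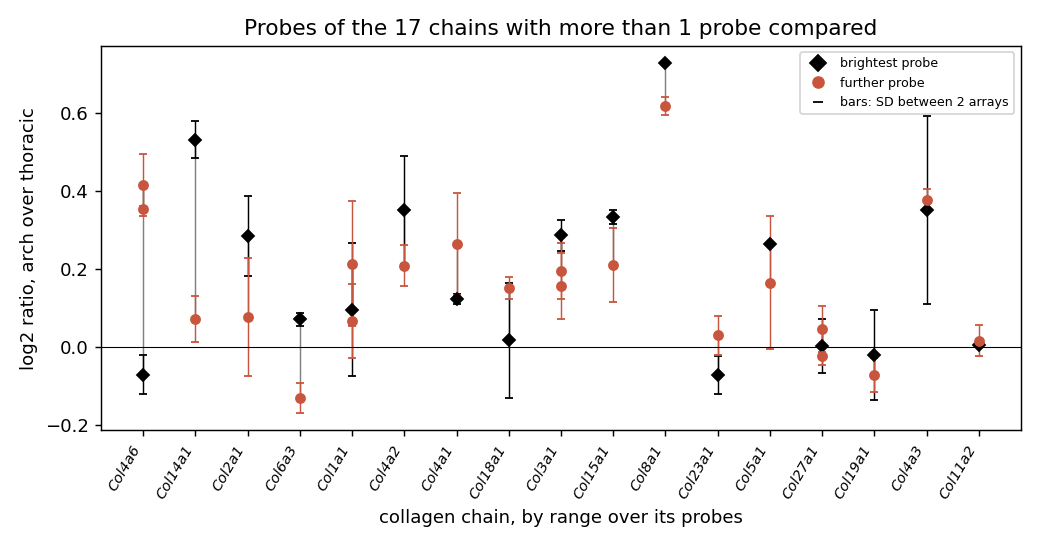
Log2 ratio of arch over thoracic (y axis) for each compared probe of the 17 chains with more than 1 (x axis, by range over the probes); black diamonds are the brightest probe, which stands for the chain, red circles the further probes, and bars the SD between 2 arrays. Col4a6 and Col14a1 have the widest ranges (0.49 and 0.46), and both probes of Col8a1 (0.73 and 0.62) lie highest.

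Genes that modify, export, cross-link, bind, degrade or regulate collagen were taken from 8 lists of 110 genes, of which 104 were compared. Their median was 0.06. For the arch, 6 passed the 1.5-fold rule (1.21% of all genes compared) and 2 the 2-fold rule (0.473%); for the thoracic pool, 1 passed the 1.5-fold rule (0.386%) and 0 the 2-fold rule (0.145%). Without loess only Sox9 passed either rule, and 0 passed for the thoracic pool, as the 1.5-fold limit was then missed on 1 array by the others called here, which are P4ha2, Lum, Comp, Bgn, Ccn4 and Timp3. Their means without loess were -0.65, 0.84, 0.68, 0.62, 0.61 and 0.85. Means of some other bright genes named below moved by over 1.5 times without loess: Serpinh1 to -0.52, Ppib to -0.38, Pcolce2 to -0.55, Ctsl to 0.34, Ccn2 to 0.29 and Adamts2 to 0.00.

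Inside the cell, collagen is hydroxylated, folded and exported. Of 14 prolyl and lysyl hydroxylase genes compared (median 0.01), 1 was called, for the thoracic pool: P4ha2, a catalytic subunit of collagen prolyl hydroxylase, gave 1348 and 1396 in the arch and 2053 and 2121 in the thoracic pool, at -0.61 ± 0.00. The pools did not overlap, whereas its relative P4ha1 was at -0.11 ± 0.02. P3h2, which hydroxylates prolines at another position, was at -0.26 ± 0.12, Plod2, a lysyl hydroxylase, at -0.21 ± 0.00 (another probe -0.02) and Ppib, which speeds folding, at -0.19 ± 0.02. The genes named from this list all lie below 0, as most were chosen by size. Over its 14 genes, 7 were above 0 and 6 below 0 on both arrays, and the highest was at 0.19. Of 17 chaperone and export genes (median 0.00), 0 were called. On both arrays 5 of them were above 0 and 8 below 0, and the highest was at 0.13. Serpinh1, the collagen chaperone HSP47, was at -0.28 ± 0.11 and Sec23a, a coat protein of export vesicles, at -0.35 ± 0.12 (another probe -0.16). Without loess the hydroxylase and chaperone medians were -0.03 and -0.10, beside 0.04 for the collagen chains, so they lay below the chains' median by either way.

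Outside the cell, propeptides are cut off and fibrils are cross-linked. Of 7 propeptide proteinases and enhancers compared (median 0.01), 0 were called. Pcolce2, an enhancer of the proteinase Bmp1, was at -0.36 ± 0.03, and Bmp1 itself at 0.15 ± 0.06 (another probe 0.03). Adamts2, which removes the amino-terminal propeptide, was at 0.15 ± 0.07. The 6 cross-linking enzymes (median 0.07) also had 0 called, and their values lay on both sides of 0. Loxl1, a lysyl oxidase of elastic fibres, gave 3926 and 3584 in the arch and 2704 and 2384 in the thoracic pool (0.56 ± 0.04). Loxl2, a lysyl oxidase that acts on type IV collagen, gave 615 and 602 in the arch and 849 and 841 in the thoracic pool (-0.47 ± 0.01), but another Loxl2 probe gave -0.02. Lox was at -0.01 ± 0.02, Loxl3 at 0.15 ± 0.01 and the transglutaminase Tgm2 at 0.61 ± 0.06 (further probe 0.22).

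Among 20 partners in fibril assembly (median 0.02, or -0.03 without loess), 4 passed the 1.5-fold rule for the arch and 0 for the thoracic pool. Lum, which limits fibril width, gave 35933 and 36501 in the arch and 17456 and 17473 in the thoracic pool, at 1.05 ± 0.02 and past the 2-fold rule. Comp, which bridges collagen molecules, was at 0.71 ± 0.07, Bgn at 0.65 ± 0.06 and Ccn4 at 0.62 ± 0.03. Tgfbi, which binds collagen and integrins, was at -0.58 ± 0.01, just short of the rule. Of 10 collagen receptors compared (median 0.11), 0 were called. Mrc2, which takes up collagen fragments, was at 0.54 ± 0.00 (another probe 0.15), and the collagen-binding kinases Ddr1 and Ddr2 at 0.49 ± 0.09 and 0.13 ± 0.05. Adgrg1, a receptor for type III collagen, was at 0.36 ± 0.09 and Itgb1, the beta subunit of the collagen-binding integrins, at -0.22 ± 0.05, with another probe of opposite sign at 0.04.

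The collagen breakdown list held 12 genes, among them the inhibitors Timp1, Timp2 and Timp3. Its median was 0.31 (0.24 without loess). Of the 12 genes, 11 were above 0 on both arrays, beside 32.4% of all genes compared, and 1 passed the 1.5-fold rule for the arch. That was Timp3, a matrix-bound inhibitor of metalloproteinases, at 12526 and 12059 in the arch and 6285 and 6075 in the thoracic pool (0.99 ± 0.00). The gelatinase Mmp2 was at 0.64 ± 0.10, the membrane collagenase Mmp14 at 0.60 ± 0.08 and the protease Ctsl at 0.59 ± 0.12. Each was short of 1.5-fold on 1 array, while the collagen-cutting cathepsin Ctsk was at -0.40 ± 0.03. Without loess, Ctsl, Timp1, Timp2 and Mmp1a were below 0 on array 1. The enzymes Mmp1a, Mmp8, Mmp9 and Mmp13 were dim, at 64.9 to 136, beside negative control means of 77.0 to 97.1. Macrophage markers, whose cells make several of these enzymes, had a median of 0.45 over 12 genes, and their part in these values was not tested.

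Of 18 regulators of collagen genes (median 0.22), 13 were above 0 and 2 below 0 on both arrays, and 1 passed both rules for the arch. Sox9, the regulator of Col2a1 in cartilage, gave 254 and 256 in the arch and 123 and 121 in the thoracic pool (1.06 ± 0.03), but a further Sox9 probe gave 0.02. The growth factor Ccn2 was at 0.52 ± 0.02, the early response factor Egr1 at 0.45 ± 0.08 and the tendon factor Mkx at -0.41 ± 0.20. Tgfb1, which induces fibrillar collagens, was at 0.37 ± 0.06 and Tgfb2 at 0.32 ± 0.11.

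**Figure D5:**
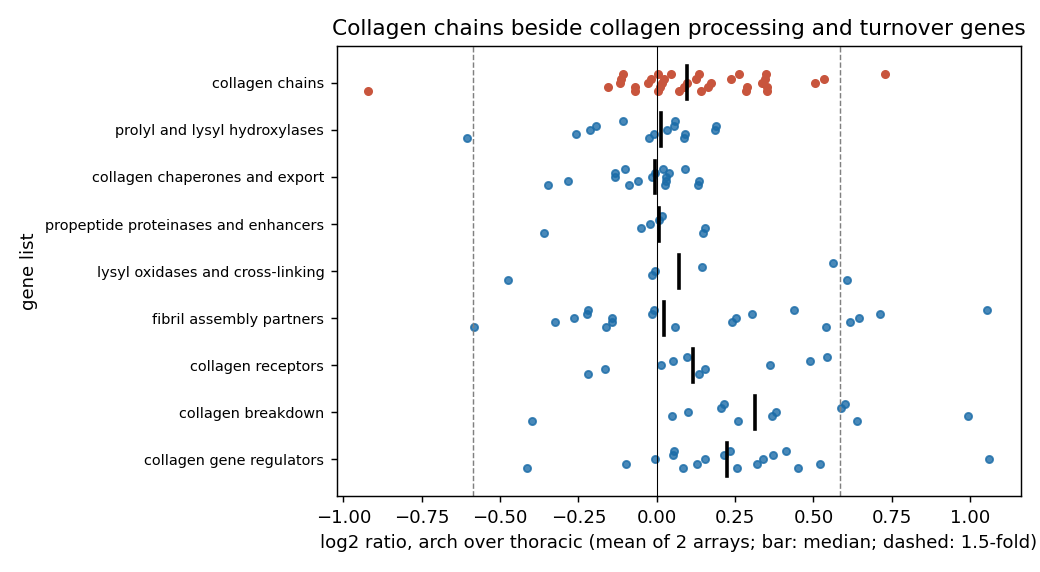
Mean log2 ratio of arch over thoracic on 2 arrays (x axis) for the collagen chains (red) and for genes of 8 lists of collagen processing, binding, breakdown and regulation (blue); points are genes, bars are list medians and dashed lines mark 1.5-fold. The collagen chains have a median of 0.10, and the hydroxylases and chaperones lie around 0. The collagen breakdown list, which includes the inhibitors Timp1, Timp2 and Timp3, has the highest median, 0.31.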

How the data were processed

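The deposited scanner tables hold intensity values per spot (mean red and green signal and local background median), which Feature Extraction 8.1.1.1 (Agilent) wrote, per the file headers. Version 9.1.1.1 is named in the submitters' processing notes. Their flags mark spots that are well above background, saturated or outliers, per the file headers. Both the scanner's deposited ratio and the deposited table of the whole series are log10 ratios. That table's columns had medians of 0 and repeated the scanner's log ratio turned to arch over thoracic, with 0 and 1 probes differing by over 0.001, and both served as alternatives. No build was given for the probes in the sources used here, and probe sequences were not used.

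With limma 3.58.1 in R 4.3.3, background was corrected by normexp (offset 50), each array was normalized by loess (controls had weight 0) and control and outlier spots (8 and 5) were then dropped. Spots of a probe were averaged, ratios of array 1 were sign-turned so that both arrays read arch over thoracic, and their mean was taken. Median local backgrounds, 55 to 66, lay below the negative controls, and an offset narrows ratios wherever signals are dim. Of 41161 probes, 32176 (56 of the 68 collagen spots) had 1 or both RNAs well above background, on each array. A gene was represented by its brightest probe of these. Levels of different probes are not compared.

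Gene names came from RefSeq tables of GRCm38.p6: 21706 gene spots matched by accession, 5476 by current symbol and 4672 by an unambiguous synonym; the name as listed was kept for 9680. Promoter windows and gene positions are RefSeq's, in that build. The steps were tested on simulated arrays. The members, gene lists and rules were chosen with earlier results of these data known. All chains are named. Each list gives up to 4 genes, called ones first, then by size. Others were added after their values were seen (P4ha1, Lox, Tgfbi, Ddr2, Ctsk, Tgfb1, Tgfb2, Pdgfra, Cd34, Clec3b, Dpep1, Acan, Hapln1, Chad, Cytl1, Epyc, Lyz2, Actc1, Gsn, Dcn, Cd5l, Adgre1, Csf1r, Itgam, Cd14, Mmp1a, Mmp8, Mmp9, Mmp13, Timp1, Timp2, Acta2, Tagln, Myl9, Myl7, Nppa, Myh6 and Ryr2).

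The alternatives were an offset of 0, no background subtraction, no loess, the deposited ratios, both other filters on dim probes, the median over probes, no saturated probes and each array left out.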

Additional observations from a re-analysis of the deposited data

How the results depend on the processing

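Under the 9 alternatives other than leaving out an array, 29 chains kept their sign (22 above 0 and 7 below), and 6 did not (Col18a1, Col19a1, Col1a1, Col27a1, Col4a6 and Col6a3), each with a mean within 0.10 of 0. Col8a1 ran from 0.67 to 0.77 and Col8a2 from -1.05 to -0.86. Some dim chains moved further. Col9a3, at -0.12 as described, was at -0.32 with an offset of 0 and at -0.43 in the deposited ratios. Col4a3, at 0.35 as described, was at 0.59 and 0.67. For the thoracic pool, chains past the 2-fold rule numbered 1 in place of 0 with an offset of 0, with the scanner's processed signals and with the series' value table, each time Col8a2; without loess, chains at least 1.5-fold higher in the arch numbered 0 in place of 1, as Col8a1 then had 0.45 on array 1 and 0.96 on array 2, and the chains' median was 0.0424. With single arrays left out, the 1.5-fold count for the arch ran from 1 to 2 (Col6a1 joined without array 1) and the median from 0.07 to 0.13. Over all genes, 108 and 33 passed the 2-fold rule for arch and thoracic pool, against 197 and 66 with an offset of 0 and 233 and 77 in the deposited ratios; for the 1.5-fold rule 275 and 88 stood against 470 and 157, 527 and 181, and 180 and 58 without loess. No paired analysis was possible because both arrays hold the same pools. Signal over background limits the dim chains, and 1 pool per segment limits all.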

Other observations

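The name rule misses collagen genes that the array lists under clone or older names. Through RefSeq accessions and synonyms, 9 further spots belonged to 8 collagen genes, 6 of which are not among the chains described (Col20a1, Col22a1, Col26a1, Col28a1, Col6a4 and Col6a6), and 7 of the spots passed the filter on dim probes. Of these 7, 6 had ratios close to 0, from -0.13 to 0.03. The exception is a spot listed as E130010M05Rik, a name that RefSeq gives as a synonym of Col4a4: it gave 606 and 599 in the arch and 293 and 315 in the thoracic pool, 0.99 ± 0.09 or 1.98-fold, while the probe listed as Col4a4 gave 0.16 ± 0.01. The pools do not overlap for that spot, whereas the Col4a4 probe gave 1177 and 1565 in the arch and 1046 and 1405 in the thoracic pool, higher in the arch on each array but overlapping between arrays. Which stretch of Col4a4 the spot reads, and whether it reads that gene at all, was not tested.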
